A study of Mus musculus with 5 samples.

Results

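Tcf7, Lef1, Satb1, Bach2, Id3, Klf2, Ccr7, S1pr1 and Il7r are 9 genes that are commonly read as the signature of naive and memory T cells. They were picked by symbol from the 32245 gene symbols of 2 single-cell expression libraries, and all 9 were found. Their levels were described in CD4, CD8, regulatory T (Treg), natural killer (NK) and B cells, and by T cell receptor (TCR) clonotype size. The mice were BALB/c, 6 weeks old, and carried subcutaneous CT26 tumours, a mouse colon carcinoma line. The treated group received 100 µg of an antibody against CTLA-4, clone 9H10, into the peritoneum on days 5, 8 and 11 after inoculation. The control group received phosphate-buffered saline on the same days, and specimens of both groups were taken on day 13. The labels call the material only tissue, and a tumour dissociation kit was used. Each group is 1 expression library with 1 TCR library, and the number of animals behind each is not given in the sources used here. There is therefore no test between groups: intervals in parentheses are 95% intervals that cover counting error only, and neither differences between animals nor free RNA are in them.

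Naive and central memory T cells recirculate between blood and lymphoid organs. Tcf7 (which encodes TCF-1) and Lef1 encode related DNA-binding factors that maintain naive, memory and stem-like T cells, Satb1 encodes a chromatin organizer needed in thymic T cell development, Bach2 encodes a repressor that restrains effector differentiation, and Id3 encodes an inhibitor of E proteins. Klf2 encodes a factor of quiescence and recirculation that activates S1pr1, the receptor by which lymphocytes leave lymphoid organs towards sphingosine 1-phosphate. Ccr7 encodes the receptor that draws naive T cells and mature dendritic cells to lymph nodes towards CCL19 and CCL21, and Il7r encodes the alpha chain of the receptor for interleukin 7, a survival signal of resting T cells. Several of these genes have roles outside T cells, such as Bach2 in B cells, Id3 in B cells and stroma, and S1pr1 and Klf2 in endothelium.

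The 9 genes lie on 6 chromosomes in GENCODE M21 on GRCm38: S1pr1 and Lef1 on chromosome 3, Bach2 and Id3 on 4, Klf2 on 8, Tcf7 and Ccr7 on 11, Il7r on 15 and Satb1 on 17. Promoter windows from 250 bases before to 50 after a gene start were taken from RefSeq on GRCm38.p6 for 7 of the 9 genes; Ccr7 and S1pr1 are the other two. Windows of Tcf7 and Il7r are printed because these genes behaved differently in expanded CD8 clonotypes below. Capitals mark matches to 5 motifs that were searched on both strands: CTTTGAT (TCF/LEF), GTAAACA (FOXO), CCACACCC (KLF), CAGGTG (E-box) and TTCNNNGAA (STAT). One of 2 Tcf7 windows, chr11:52282546-52282845 on the minus strand, is printed because it holds 1 KLF, 1 FOXO and 1 E-box match, none of which overlap; the other, chr11:52282965-52283264, holds none of the 5 motifs. The Il7r window, chr15:9529827-9530126 on the minus strand, holds 1 STAT match.
Tcf7: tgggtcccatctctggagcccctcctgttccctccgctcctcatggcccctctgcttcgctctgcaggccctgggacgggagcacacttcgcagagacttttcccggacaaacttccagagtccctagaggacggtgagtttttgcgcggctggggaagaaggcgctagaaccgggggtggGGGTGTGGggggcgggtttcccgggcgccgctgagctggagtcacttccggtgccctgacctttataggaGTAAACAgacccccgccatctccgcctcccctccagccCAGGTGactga
Il7r: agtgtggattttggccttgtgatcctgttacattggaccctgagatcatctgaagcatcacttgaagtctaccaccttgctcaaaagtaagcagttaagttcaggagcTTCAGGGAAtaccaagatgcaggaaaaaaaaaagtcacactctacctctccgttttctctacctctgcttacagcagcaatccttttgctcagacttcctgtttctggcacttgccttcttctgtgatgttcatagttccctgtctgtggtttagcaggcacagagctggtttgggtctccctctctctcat
Of 32851 promoter windows, 3.73% hold the TCF/LEF motif, 3.65% the FOXO motif, 3.56% the KLF motif, 20.2% the E-box and 8.30% the STAT motif. No window of the 7 genes holds the TCF/LEF letters, and the E-box letters also occur in windows of Lef1 and Satb1 and the STAT letters in that of Bach2. A match is a run of letters and not a measured binding site.

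The control library held 5649 barcodes with 86478313 unique molecular identifiers (UMIs) and the anti-CTLA-4 library 4186 barcodes with 19989467 UMIs; 5242 and 3950 cells were kept. Levels are in CPM, the UMIs of a gene for each 1000000 UMIs of the cell class. T cells, NK cells and B cells were identified from marker genes, and T cells were then split by their own Cd4, Cd8a, Cd8b1 and Foxp3 UMIs. This gave 56 control and 546 anti-CTLA-4 CD4 cells, 61 and 644 CD8 cells, 62 and 113 Treg cells, 241 and 122 NK cells, and 72 and 620 B cells. Another 189 control and 811 anti-CTLA-4 T cells fell in no subset and are in none of these classes. In the anti-CTLA-4 library these cells held more of the 9 genes at once than CD4 and CD8 cells did, as given below. The summed level of 7 B cell markers was 4184 and 4544 in B cells and at most 32.5 in the 3 T cell subsets. That of 6 T cell markers was 3345 to 4505 in T subsets and 129 to 222 in B cells. These markers also named the clusters, so the sums describe the classes and do not check the names. The NK class was less clean: it held the 6 T cell markers at 977 in the control and 1160 in the anti-CTLA-4 library. Its 7 NK markers stood at 1723 and 1464, and 17 and 12 of its cells had a TRB contig. As a measure of background, 30 genes leading the 2953 control cells without Ptprc were followed. They stood at 5.43% to 11.96% of their level there in the control lymphocyte classes. In the anti-CTLA-4 classes they stood at 0.343% to 1.23%. These genes were picked as high in those cells over anti-CTLA-4 immune cells. The low anti-CTLA-4 values therefore follow in part from the choice, and the contrast is no independent measure. Of 368 control T cells, 220 formed a subcluster of their own led by Crabp1, Ccl2 and Spp1, with 2 anti-CTLA-4 cells. The part of this background in the differences below was not tested. The 9 genes themselves were near 0 in the control cells without Ptprc, at 0.0958 to 7.75 CPM, except for Klf2 at 70.6 and Id3 at 87.2 CPM. The libraries shared 20 expression barcodes and no TCR barcode.

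Tcf7 was found in CD4, CD8 and NK cells and was near 0 in Treg and B cells. Its level was 288 CPM (205 to 391.6) in control and 226 (207 to 246) in anti-CTLA-4 CD4 cells, and 106 (68.4 to 156) and 164 (151 to 179) in CD8 cells. It was 66.4 (50.5 to 85.6) and 127 (96.5 to 165) in NK cells. Treg cells held 2 control and 10 anti-CTLA-4 UMIs of Tcf7, or 10.8 and 16.3 CPM, and B cells 1 and 2 UMIs. CD4 cells thus stood above CD8 cells in both libraries, by 2.72 times (1.61 to 4.68) in the control and 1.37 times (1.21 to 1.56) in the anti-CTLA-4 library. CD8 and NK cells did not differ beyond counting error in either library, and NK cells exceeded Treg cells by 6.12 times (1.62 to 51.7) and 7.83 times (3.97 to 17.2).

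Lef1 had the same leading class but did not share the gap at Treg cells. It stood at 122 and 297 CPM in control and anti-CTLA-4 CD4 cells, 106 and 197 in CD8 cells, 81.3 and 94.3 in Treg cells, 60.8 and 64.8 in NK cells, and 26.9 and 3.97 in B cells. In the control no neighbouring classes in this order differed beyond counting error. In the anti-CTLA-4 library CD4 exceeded CD8 cells by 1.504 times (1.35 to 1.68) and CD8 exceeded Treg cells by 2.09 times (1.60 to 2.79).

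Satb1 and Bach2 extended beyond T cells. Satb1 was at 439 and 693 CPM in control and anti-CTLA-4 CD4 cells, 397 and 613 in CD8 cells, 217 and 428 in Treg cells, 239 and 592 in NK cells, and 390 and 401 in B cells. Macrophages, taken as a class that should lack it, held 4.61 and 22.4 CPM. Bach2 was highest in B cells, at 80.7 and 148 CPM, against 57.5 and 101 in CD4, 55.0 and 75.0 in CD8, 21.7 and 55.3 in Treg and 46.1 and 103 in NK cells. The lead of B cells over the next class was within counting error in the control, at 1.40 times (0.528 to 3.96), and 1.44 times (1.06 to 2.01) in the anti-CTLA-4 library.

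Id3 was scarce in T cells. It stood at 28.8 and 21.3 CPM in control and anti-CTLA-4 CD4 cells, 25.4 and 16.9 in CD8 cells, 5.42 and 8.13 in Treg cells and 37.1 and 15.6 in NK cells. B cells held 80.7 and 123 CPM, above the next class by 2.17 times (1.02 to 4.32) and 5.76 times (4.23 to 8.00). One cell held 18 of the 48 Id3 UMIs of anti-CTLA-4 CD4 cells, and another held 13 of the 33 of control NK cells. Endothelial cells stood at 934 and 996 CPM, keratinocytes at 530 and 632, fibroblasts at 453 and 492, and macrophages at 103 and 46.3, so that in the control library Id3 in T cells lay below the 87.2 CPM of the cells without Ptprc.

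Klf2 was spread over all 5 lymphocyte classes. It stood at 403 and 414 CPM in control and anti-CTLA-4 CD4 cells, 237 and 370 in CD8, 136 and 293 in Treg, 315 and 624 in NK and 229 and 324 in B cells. No neighbours in the control order differed beyond counting error, while in the anti-CTLA-4 library NK cells exceeded CD4 cells by 1.51 times (1.31 to 1.72). One of these NK cells held 48 of the 279 Klf2 UMIs. Without the highest cell of each class the levels were 520 CPM in NK and 407 in CD4 cells. Neutrophils held 645 and 594 CPM and endothelial cells 427 and 269. S1pr1, a known target of KLF2, did not follow it into NK cells: its level was 4.50 and 15.6 CPM there, from 4 and 7 UMIs. It was 115 and 191 in CD4, 88.8 and 104 in CD8, 59.6 and 132 in Treg, and 47.1 and 95.2 in B cells. B cells exceeded NK cells by 10.5 times (2.66 to 48.7) in the control and 6.09 times (2.90 to 15.3) in the anti-CTLA-4 library. Endothelial cells held 263 and 327 CPM of S1pr1.

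Ccr7 showed a different order in each library. In the control it was 1932 CPM (1759 to 2118) in CD8, 1316 (1132 to 1521) in CD4, 1292 (1115 to 1488) in B and 791 (668 to 931) in Treg cells. In the anti-CTLA-4 library it was 1000.1 (923 to 1082) in Treg, 951 (911 to 992) in B, 804 (773 to 836) in CD8 and 686 (652 to 721) in CD4 cells. CD8 cells led in the control and Treg and B cells, which did not differ beyond counting error, led in the anti-CTLA-4 library. NK cells were last in both, at 126 and 152 CPM. Without the highest cell of each class, control CD4 cells stood at 1039 CPM, below control B cells at 1225. Dendritic cells held 667 and 2268 CPM, from 63 and 52 cells. Of the genes for its ligands, Ccl19 was at 117 and 506 CPM in control and anti-CTLA-4 fibroblasts and Ccl21a at 191 and 637 in endothelial cells, the latter from 35 and 16 cells; these were named after their values were seen.

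Il7r was near absent from B cells, where 0 and 3 UMIs were counted. A floor of 3 counts would correspond to 20.2 CPM in control B cells. It stood at 324 (236 to 433) and 254 (233 to 275) CPM in control and anti-CTLA-4 CD4 cells, 228 (172 to 298) and 207 (191 to 223) in CD8 cells, 385 (301 to 485) and 272 (232 to 316) in Treg cells and 43.9 (31.2 to 60.0) and 123 (92.6 to 160) in NK cells. Treg and CD4 cells did not differ beyond counting error in either library. Macrophages held 89.8 and 203 CPM, above NK cells in both libraries.

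**Figure D1:**
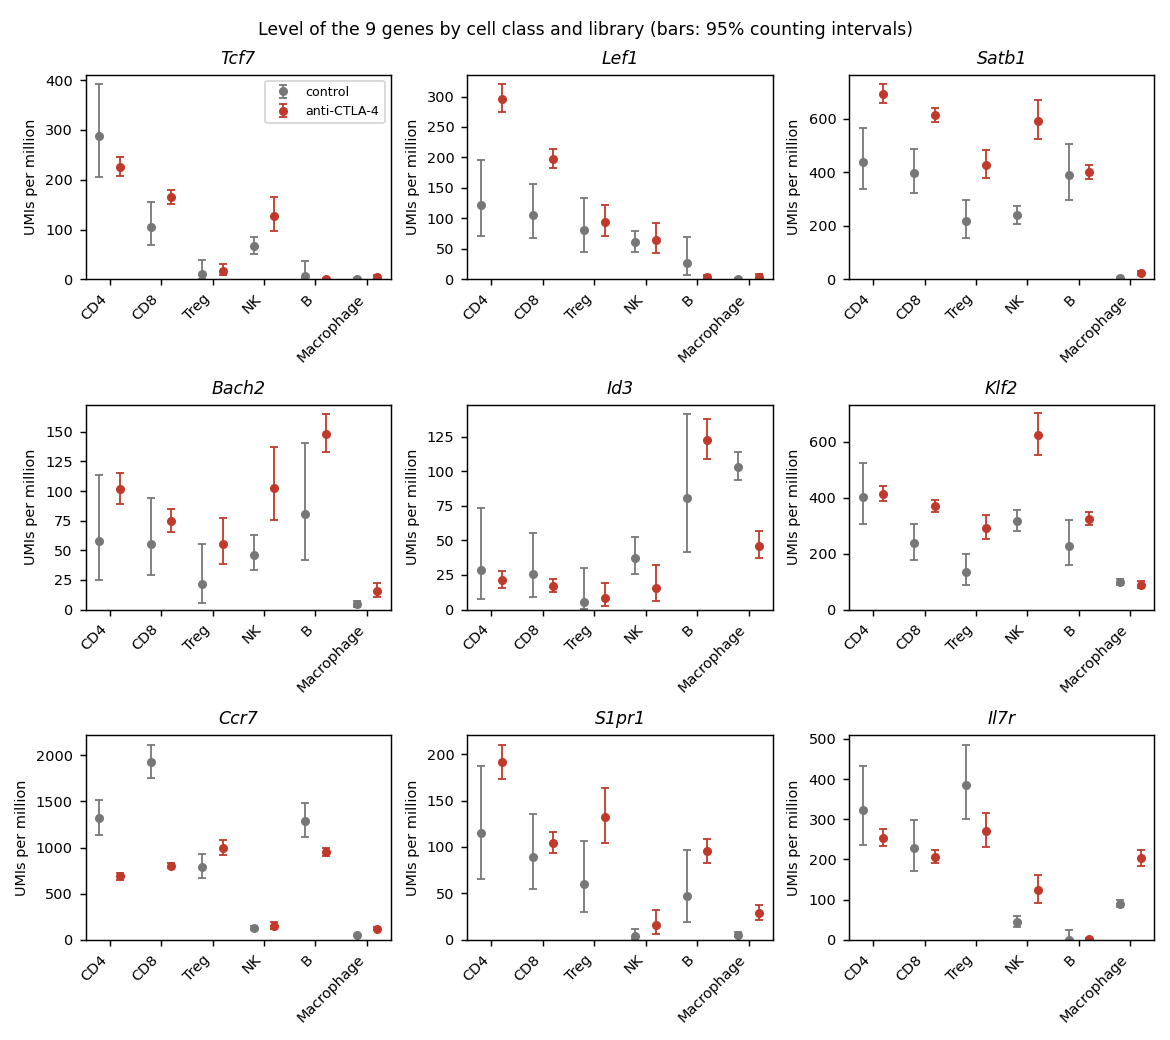
Levels of the 9 genes in CPM (linear axes from 0) in 6 cell classes of the control (grey) and anti-CTLA-4 (red) libraries; points are sums over all cells of a class and bars are 95% counting intervals. Tcf7 is near 0 in Treg and B cells, Il7r is near 0 in B cells, and Ccr7 is lower in CD4 and CD8 cells of the anti-CTLA-4 library but not in Treg cells.

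After thinning each cell to 1000 UMIs, to set depths equal, the share of CD4 cells with a Tcf7 UMI was 23.1% (12.5 to 36.8) in the control and 20.4% (17.1 to 24.1) in the anti-CTLA-4 library. For Ccr7 the shares were 59.3% (45.03 to 72.4) and 44.5% (40.6 to 48.5) of CD8 cells, and 29.8% (18.4 to 43.4) and 50% (40.3 to 59.7) of Treg cells. No thinned macrophage held a Tcf7 UMI in either library, and 1.98% and 3.03% held a Ccr7 UMI. Macrophages did hold other members, with Klf2 in 8.44% and 6.44% of them, Il7r in 6.86% and 15.9% and Id3 in 8.58% and 3.79%; Id3 in CD4 and CD8 cells, at 1.86% to 3.70%, lay at or below the macrophage share of its library.

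Between the libraries, a gene was counted as higher or lower where its level differed at least 1.5-fold, among genes with at least 20 UMIs in the cells compared. In CD4 cells 4 of 9 members were higher in the anti-CTLA-4 library, where 34.2% of 7723 genes were, and 1 was lower, where 14.1% were; the median log2 ratio was 0.03 for the members and 0.07 for all genes. In CD8 cells 4 of 9 were higher and 1 lower, against 22.5% and 21.2% of 8244 genes, with medians of 0.40 and -0.13. In Treg cells 4 of 7 were higher and 0 lower, against 17.1% and 17.4% of 4958 genes, in NK cells 5 of 8 and 1, against 21.4% and 17.9% of 6371, and in B cells 3 of 6 and 0, against 28.9% and 15.6% of 7655. In all T cells together 3 of 9 were higher and 2 lower, beside 15.6% of 10160 genes in either direction. The medians of the members in Treg, NK and B cells were 0.96, 0.96 and 0.51, beside -0.07, 0.05 and -0.03 for all genes. The members left out of these counts for low UMIs are Tcf7 and Id3 in Treg, S1pr1 in NK, and Tcf7, Lef1 and Il7r in B cells. With 1 library per group these shares describe 2 libraries and not 2 treatments.

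Ccr7 in the anti-CTLA-4 library was 0.521 times (0.447 to 0.611) its control level in CD4 cells, 0.416 times (0.376 to 0.461) in CD8 cells and 0.736 times (0.635 to 0.858) in B cells. In Treg cells it was 1.26 times (1.05 to 1.52) and in NK cells 1.21 times (0.879 to 1.64) the control level. With cells thinned to 1000 UMIs, and shallower cells left out, the ratio was 0.533 in CD4, 0.478 in CD8 and 1.65 in Treg cells. Single cells weigh on the control sums: 1 CD4 cell held 42 of 183 Ccr7 UMIs and 1 CD8 cell 89 of 457. Without the highest cell of each class, control and anti-CTLA-4 levels were 1039 and 668 CPM in CD4 cells. They were 1666 and 792 in CD8, 1225 and 937 in B, and 718 and 946 in Treg cells.

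Lef1 was 2.43 times (1.505 to 4.19) higher in CD4 and 1.87 times (1.25 to 2.91) in CD8 cells. Satb1 was 1.58, 1.54, 1.97 and 2.48 times higher in CD4, CD8, Treg and NK cells, and 1.03 times (0.788 to 1.36) in B cells. Tcf7 was 1.56 times (1.04 to 2.43) its control level in CD8 and 1.92 times (1.31 to 2.81) in NK cells, but 0.785 times (0.569 to 1.11) in CD4 cells. Bach2 ratios ran from 1.37 to 2.55 over the 5 classes, with an interval above 1 in NK, at 2.23 (1.43 to 3.48), and B cells, at 1.83 (1.04 to 3.59). With T subsets taken from subclusters in place of single-cell UMIs, the Treg ratio of Bach2 was 0.736 (0.175 to 3.55), and the CD4 ratio was 6.48 for Lef1, 2.82 for Satb1 and 1.40 for Tcf7. In CD8 cells that setting put Lef1 at 4.45 times the control level. Few control cells back that setting: the subclusters named CD4 held 2, 13, 1 and 3 of them. Those named CD8 held 8, 17 and 0. The 13 lay in a subcluster led by Il13 and Csf2, and the 17 in one led by Ccl5 and Gzmd. The part of this makeup in the ratios was not tested. In CD8 cells the 4 calls of higher level, Tcf7, Lef1, Satb1 and Klf2, were lost with cells thinned to 1000 UMIs. Lef1 was then at 0.994 times (0.564 to 1.91) and Tcf7 at 1.19 times, Satb1 at 1.20 times and Klf2 at 1.11 times the control level. Thinning gives each cell equal weight and leaves out cells under 1000 UMIs, while the sums weight cells by their depth. The median depth was 2469 UMIs in control and 4131.5 in anti-CTLA-4 CD8 cells. The part of either in the lost calls was not tested.

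Klf2 was 2.16 times (1.42 to 3.43) higher in Treg and 1.98 times (1.67 to 2.34) in NK cells, and 1.03 times (0.785 to 1.37) in CD4 cells. Without the highest NK cell of each library, Klf2 was at 300 CPM in control and 520 in anti-CTLA-4 NK cells. With T subsets from subclusters, the Treg ratio of Klf2 turned to 0.558 (0.365 to 0.856), and Klf2 was 4.92 times (2.495 to 11.4) higher in CD4 and 4.20 times in CD8 cells. S1pr1 was 2.21 times (1.17 to 4.60) higher in Treg and 1.66 times (1.01 to 2.94) in CD4 cells; thinned, these were 1.66 and 1.17 times, and with subclusters 1.33 and 2.85 times. Il7r was 2.80 times (1.83 to 4.34) higher in NK cells and 0.706 times (0.531 to 0.945) its control level in Treg cells. In NK cells without a TRB contig, 224 control and 110 anti-CTLA-4 cells, Il7r was 3.09 times (1.83 to 5.30) and Tcf7 1.83 times (1.16 to 2.88) higher, and 5 of 8 members were higher and 1 lower, beside 22.3% and 17.0% of genes, a comparison added after the first values were seen.

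**Figure D2:**
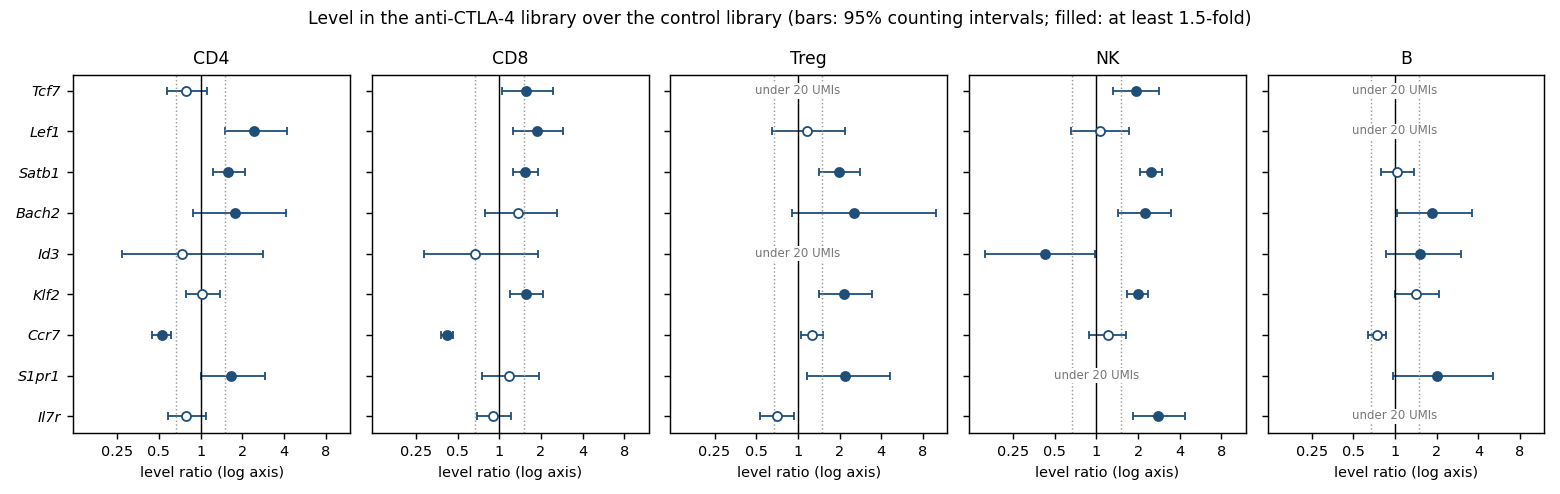
Ratio of levels, anti-CTLA-4 over control library, for each gene (rows) in 5 cell classes (panels) on a log axis; bars are 95% counting intervals, filled points are at least 1.5-fold from 1 and dotted lines mark 1.5-fold. Ccr7 lies left of 1 in CD4, CD8 and B cells and right of 1 in Treg cells, and Satb1 lies right of 1.5 in CD4, CD8, Treg and NK cells.

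Among 5 T cell clusters, Ccr7 was lower in the anti-CTLA-4 library in 2, a breakdown chosen after the first values were seen. In the cluster led by Il13, Serpinb1a and Icos, mostly CD4 cells where a subset was assigned, Ccr7 was 1573 CPM (1400 to 1761) in 67 control and 283 in 371 anti-CTLA-4 cells, a ratio of 0.180 (0.156 to 0.208). In the cluster led by Klrc1, Cd8b1 and Nkg7 it was 2184 (1925 to 2467) in 21 control and 260 in 277 anti-CTLA-4 cells, a ratio of 0.119 (0.101 to 0.140). In the cluster led by Rflnb and Gimap6 the 2 libraries held 987 and 1229.9 CPM, in that led by Cd8b1 and Cd27 1112 and 1257, and in that led by Tnfrsf4 and Foxp3 925 and 1131, ratios of 1.25, 1.13 and 1.22. The 9 genes were kept out of the variable genes that formed these clusters.

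In the Rflnb cluster 5 of 9 were higher and 1 lower, beside 28.5% and 17.0% of genes, in the Cd27 cluster 1 and 1 of 9, beside 25.6% and 24.1%, and in the Foxp3-led cluster 4 and 1 of 8, beside 19.2% and 18.0%. In the Il13 cluster 2 of 9 were higher and 4 lower, beside 25.9% and 14.3%, and in the Klrc1 cluster 4 and 2 of 8, beside 31.2% and 19.4%; these counts include Ccr7. In the Il13 cluster Lef1 was 2.90 times (1.31 to 8.00) higher and Satb1 1.52 times higher in the anti-CTLA-4 library, while Klf2, S1pr1 and Il7r were at 0.496, 0.469 and 0.649 times their control level. In the Klrc1 cluster Klf2 was 2.02 times (1.01 to 4.76) and Satb1 1.69 times (1.17 to 2.53) the control level, and Il7r was 1.03 times. Il7r was at 0.464 times (0.363 to 0.595) its control level in the Foxp3-led cluster and at 1.66 times (1.23 to 2.28) in the Rflnb cluster. Satb1 ratios lay between 1.49 and 1.89 in all 5 clusters. Tcf7 was 8.25 times (2.74 to 40.7) higher in the Foxp3-led cluster, on 3 control UMIs; this cluster held 51 CD4 and 108 Treg cells in the anti-CTLA-4 and 10 CD4 and 61 Treg cells in the control library, and the part of that makeup in the ratio was not tested.

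**Figure D3:**
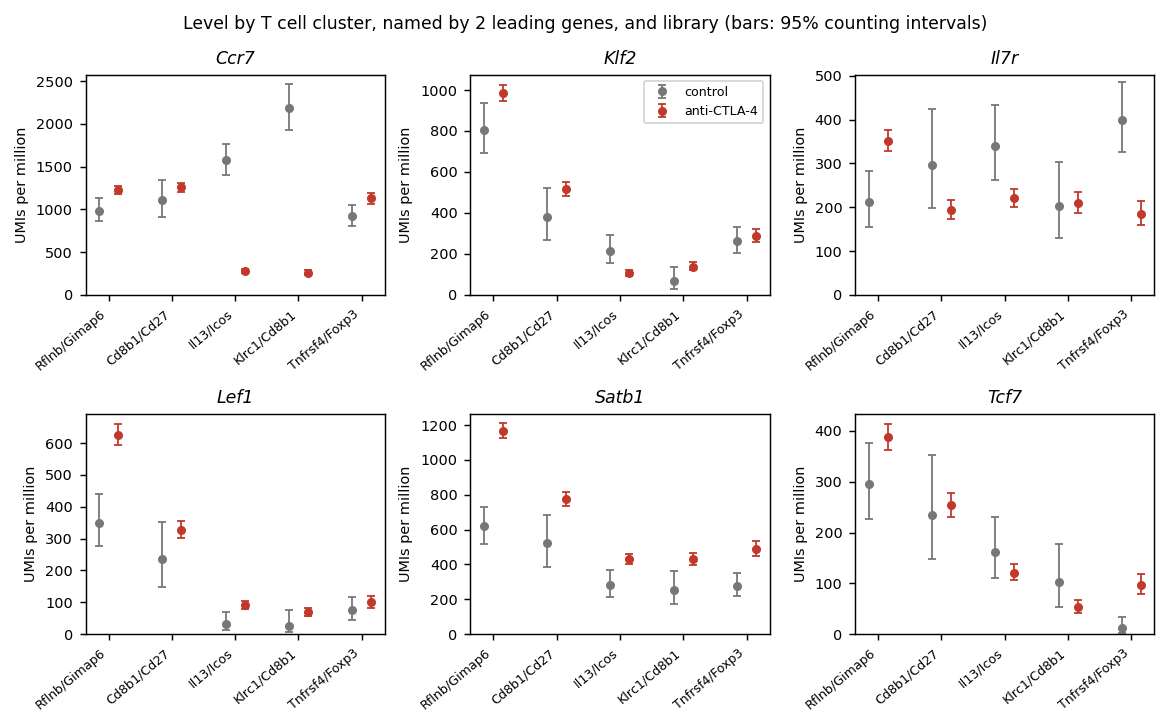
Levels of 6 members in CPM (linear axes from 0) in 5 T cell clusters, each named by 2 of its leading genes, for the control (grey) and anti-CTLA-4 (red) libraries, with 95% counting intervals. Ccr7 is far lower in the anti-CTLA-4 library in the Il13/Icos and Klrc1/Cd8b1 clusters, and Satb1 is higher in that library in all 5.

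Within the anti-CTLA-4 library most members were lower in expanded clonotypes. A clonotype is the set of barcodes that share the authors' deposited TCR clonotype; single means 1 barcode and expanded at least 2. Of CD8 cells with a clonotype, 310 were single and 223 were expanded, or 41.8% (37.6 to 46.2); of CD4 cells 299 were single and 136 expanded, or 31.3% (26.9 to 35.9). Treg cells held 79 single and 5 expanded cells. In the control, 7 of 50 CD8 and 3 of 41 CD4 cells were expanded. Cells of a clonotype share their origin and are not replicates.

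In CD8 cells 8 of 9 members were at least 1.5-fold lower in expanded clonotypes, against 13.3% of 7815 genes, and 0 were higher; the median log2 ratio was -1.90 for the members and 0.20 for all genes. Ccr7 was at 214 CPM (188 to 241) in expanded and 1205 (1151 to 1261) in single CD8 cells, a ratio of 0.177 (0.155 to 0.202). Klf2 was at 112 and 508 CPM, a ratio of 0.220 (0.182 to 0.264), and Tcf7 at 52.6 and 236, a ratio of 0.223 (0.168 to 0.292). S1pr1 stood at 37.0 and 150, Lef1 at 69.8 and 262, and Bach2 at 28.7 and 108, ratios of 0.246, 0.266 and 0.266. Satb1 was less unequal, at 409 and 726 CPM or 0.564 times (0.506 to 0.627), and Id3 was at 0.450 times (0.212 to 0.891) on 12 and 34 UMIs. Il7r was the exception: its level was 209 (185 to 237) in expanded and 184 (163 to 207) in single CD8 cells, a ratio of 1.14 (0.957 to 1.35).

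In CD4 cells 8 of 9 members were likewise lower in expanded clonotypes, against 12.3% of 7274 genes, and 0 were higher, with medians of -1.65 and 0.14. Klf2 had the lowest ratio of the 9, at 99.9 CPM in expanded and 522 in single cells, a ratio of 0.191 (0.148 to 0.244). S1pr1 was at 58.1 and 241, Lef1 at 104 and 377, Ccr7 at 235 and 827 and Bach2 at 40.5 and 129, ratios of 0.240, 0.275, 0.284 and 0.315. Il7r was lower here, at 162 and 276 CPM or 0.587 times (0.472 to 0.725), and Tcf7 was at 146 and 260, or 0.560 times (0.446 to 0.699). Satb1 was at 0.568 times and Id3 at 0.735 times (0.351 to 1.46). The intervals of Tcf7 and Il7r in CD4 and CD8 cells do not overlap. The difference between the subsets was not otherwise tested.

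**Figure D4:**
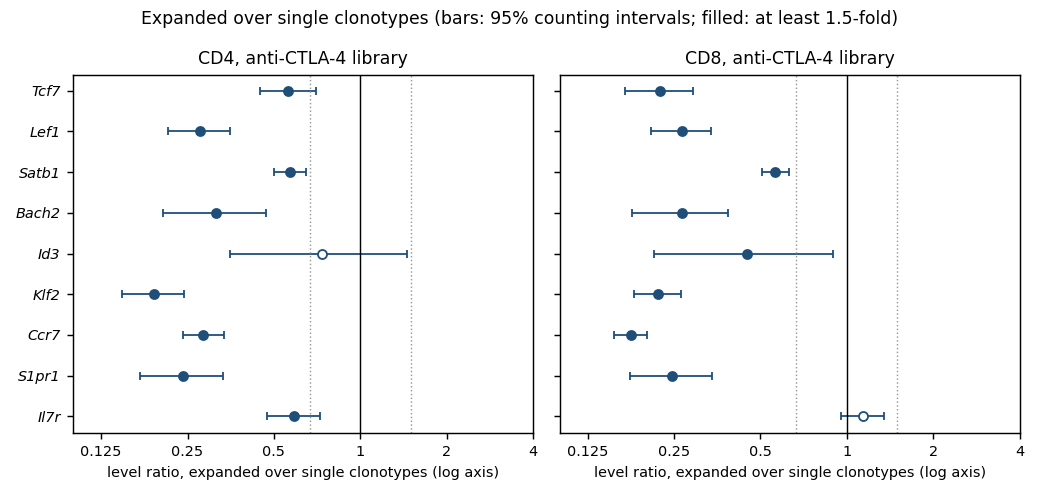
Ratio of levels in expanded over single clonotypes for each gene (rows) in CD4 and CD8 cells of the anti-CTLA-4 library, on a log axis with 95% counting intervals; filled points are at least 1.5-fold from 1. All genes but Id3 in CD4 cells and Il7r in CD8 cells lie left of the 1.5-fold line.

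In the 5 expanded Treg cells 4 of 7 measured members were higher than in single ones and 0 lower, beside 28.8% and 29.9% of genes. These 5 cells come from 2 clonotypes, and the 4 Lef1 UMIs and the 3 Bach2 UMIs each come from 1 cell. Ccr7 was at 1287 CPM (862 to 1849) in them and 1002 (916 to 1093) in single Treg cells. Of 15 other genes of naive and central memory cells, 10 were lower and 1 higher in expanded CD4 cells, and 11 lower and 1 higher in expanded CD8 cells, with median log2 ratios of -1.40 and -2.64. Ets1, which encodes a transcription factor of lymphocytes, was at 0.865 times its level in single CD4 and 1.08 times in single CD8 cells. Gpr183, a receptor for oxysterols that guides lymphocyte position, was the list's higher gene in both, at 1.58 times (1.24 to 2.01) and 2.11 times (1.76 to 2.54).

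Of 18 effector and residency genes, 6 of 11 measured were higher and 1 lower in expanded CD4 cells, and 10 of 14 higher and 3 lower in expanded CD8 cells, with medians of 0.84 and 2.69. In CD8 cells Cxcr6, a chemokine receptor of tissue T cells, stood at 1779 CPM in expanded and 149 in single cells, and Gzma, a granzyme, at 1754 and 250.5. Havcr2, which encodes the inhibitory receptor TIM-3, was 15.9 times (9.40 to 29.0) higher there. Of the 17 ligands and partners, 11 were measured; 3 were higher and 0 lower in expanded CD4 cells and 3 higher and 2 lower in expanded CD8 cells. Il2rg, the common gamma chain that pairs with the product of Il7r, was 1.57 times (1.42 to 1.73) higher in expanded CD4 and 1.66 times (1.505 to 1.83) in expanded CD8 cells, and Jak3, its kinase, 1.98 times (1.47 to 2.69) in CD8 cells.

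Larger clonotypes had lower levels of most of these genes in CD8 cells. Klf2 was at 508 CPM in single CD8 cells, 236 (180 to 303) in clonotypes of 2 to 4 barcodes and 78.2 (61.5 to 98.1) in those of 5 or more. Tcf7 stood at 236, 96.6 (62.5 to 143) and 40.7 (28.9 to 55.6), S1pr1 at 150, 81.2 (50.2 to 124) and 25.0 (16.04 to 37.2), and Lef1 at 262, 128 (87.8 to 179) and 54.2 (40.5 to 71.1). Ccr7 was at 1205, 305 (242 to 381) and 189 (162 to 218). Satb1 did not differ between the latter classes beyond counting error, at 433 (356 to 521) and 403 (363 to 445), and Il7r was 184, 232 (177 to 299) and 203 (176 to 234). In CD4 cells the larger gap lay between single cells and clonotypes of 2 to 4 barcodes for 7 members, Lef1, Satb1, Ccr7, S1pr1, Klf2, Il7r and Bach2. Their intervals in the larger classes overlap, which does not show equal levels, and ratios between those classes were not computed. Lef1 was at 377, 101 (73.5 to 135) and 109 (74.4 to 154), and Klf2 at 522, 121 (90.8 to 158) and 68.0 (41.5 to 105). Tcf7 stood at 260, 179 (142 to 223) and 95.2 (63.3 to 138), and the Id3 intervals of all 3 classes overlap. The CD4 classes hold 84 cells of 48 clonotypes and 52 cells of 13 clonotypes, and the CD8 ones 55 cells of 23 and 168 cells of 19.

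**Figure D5:**
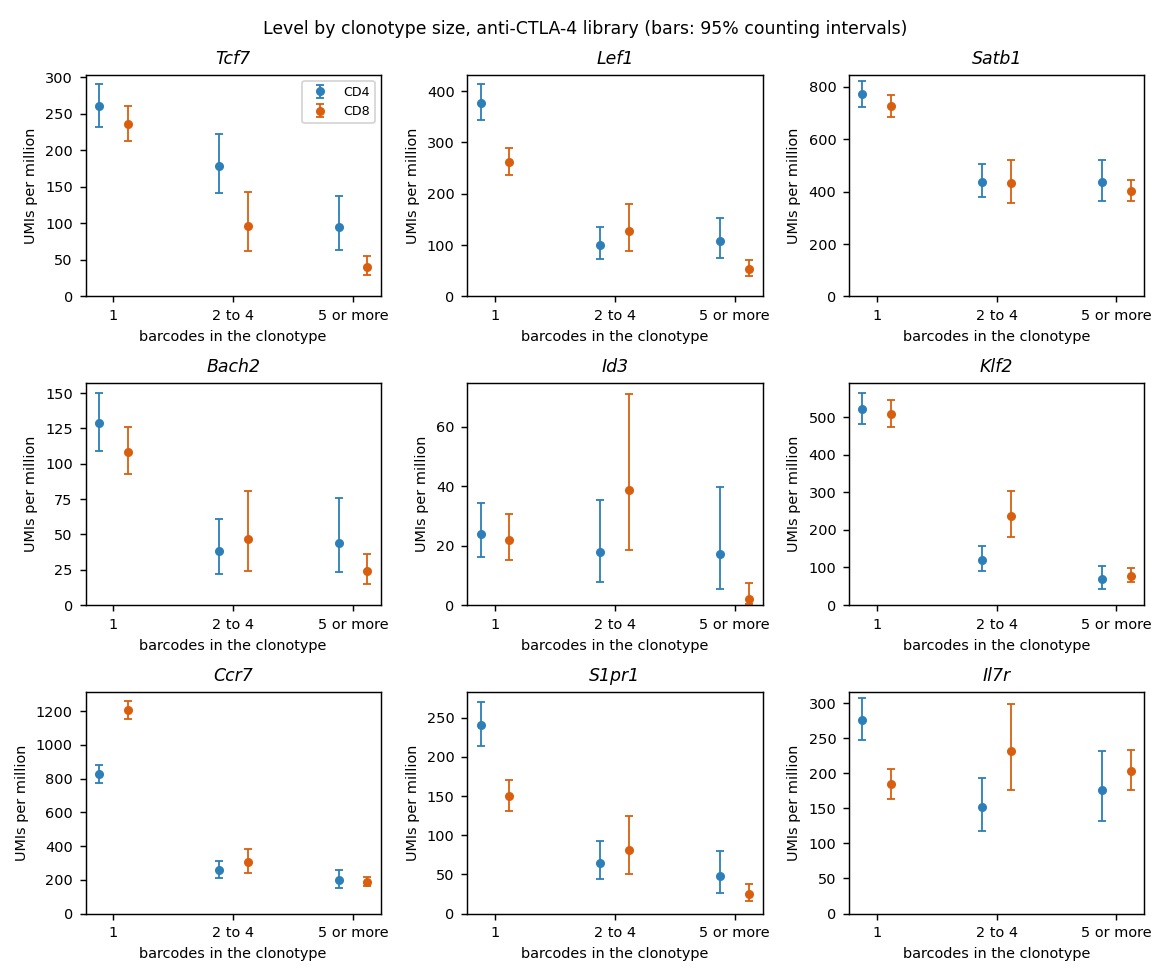
Levels of the 9 genes in CPM (linear axes from 0) by the number of barcodes in the clonotype, for CD4 (blue) and CD8 (orange) cells of the anti-CTLA-4 library, with 95% counting intervals. Klf2, Tcf7, Lef1, S1pr1 and Ccr7 in CD8 cells step down over all 3 size classes, and Il7r in CD8 cells does not.

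The largest clones of the anti-CTLA-4 library, those with at least 10 barcodes among the kept T cells, were 5 in number. The nucleotide sequences of their TRB CDR3, from the deposited contigs, are shown beside the levels of members in each clone. Each clone has 1 such sequence, which joins segments of the TRB locus on chromosome 6. Clones 1 to 5 here are the deposited clonotypes 1, 2, 3, 6 and 7. Clones 1 to 4 are CD8 clones of 26, 16, 16 and 10 cells that use TRBV13-1, TRBV13-1, TRBV2 and TRBV5. In clone 3, 14 cells were CD8 cells and 2 had no assigned subset. Clone 5 has 10 cells, of which 6 were CD4 cells, 1 a CD8 cell and 3 of no assigned subset, and uses TRBV14.
Clone 1: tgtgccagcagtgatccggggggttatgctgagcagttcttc
Clone 2: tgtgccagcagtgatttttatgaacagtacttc
Clone 3: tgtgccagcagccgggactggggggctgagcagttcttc
Clone 4: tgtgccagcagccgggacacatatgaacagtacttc
Clone 5: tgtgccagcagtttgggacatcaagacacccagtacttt
Tcf7 was at 53.5, 0, 26.2 and 83.2 CPM in clones 1 to 4, with a UMI in 4, 0, 2 and 2 of their cells. In clone 5 it was at 448 CPM, with a UMI in 9 of 10 cells, which is above the 260 CPM of single CD4 cells. Klf2 stood at 30.6, 28.1, 183, 166 and 192 CPM in clones 1 to 5, and Ccr7 at 313, 324, 249, 150 and 107. Il7r was at 183, 310, 183 and 200 CPM in the CD8 clones and at 64.1 in clone 5. The values of clone 5 rest on 21 Tcf7, 5 Ccr7 and 3 Il7r UMIs, and the Ccr7 level of clone 4 on 9 UMIs. In clones 1 to 4 Tcf7 rests on 7, 0, 2 and 5 UMIs and Klf2 on 4, 2, 14 and 10. Their Ccr7 UMIs came from 6, 3, 4 and 4 cells. Differences among these CD8 clones were not tested.

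The control library held 7 expanded CD8 cells of 4 clonotypes, and Ccr7 was higher in them than in single cells, unlike in the anti-CTLA-4 library. Its level was 2907 CPM (2308 to 3613) in these cells, beside 1785 (1602 to 1982) in 43 single CD8 cells, a ratio of 1.63 (1.26 to 2.08). It was 2.57 with cells thinned to 1000 UMIs and 2.85 with clonotypes by identical TRB CDR3. The 7 cells held 12, 17, 18, 7, 1, 20 and 6 Ccr7 UMIs, so that each held at least 1. Klf2 was at 0.138 times (0.00342 to 0.802) its level in single cells, on 1 UMI. Of 6 measured members 2 were higher and 3 lower, beside 21.1% and 25.6% of genes. Among single clonotypes alone Ccr7 was at 0.675 times (0.602 to 0.759) its control level in CD8 cells of the anti-CTLA-4 library, beside 0.416 times in all CD8 cells. In CD4 cells it was at 0.549 times (0.465 to 0.651), within counting error of the 0.521 times of all CD4 cells. The control sums behind these ratios were 349 Ccr7 UMIs in single CD8 and 165 in single CD4 cells. One CD8 cell held 89 of the former and 1 CD4 cell 42 of the latter. The ratios without these cells were not computed. In those single CD8 cells Tcf7 was 2.71 times (1.67 to 4.70) and Lef1 2.33 times (1.52 to 3.76) higher in the anti-CTLA-4 library, and Klf2 1.95 times (1.47 to 2.64). Of the 9 members 6 were higher and 0 lower in single CD8 cells, beside 22.5% and 26.0% of genes, and 4 higher and 2 lower in single CD4 cells, beside 33.7% and 15.6%. This split was added after the first values were seen.

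Cells of expanded clonotypes held fewer of the 9 genes at once. Of single CD8 cells thinned to 1000 UMIs, 44.2% (38.6 to 49.9) held UMIs of at least 3 of the 9 genes and 5.48% (3.23 to 8.64) of none. Of expanded CD8 cells 8.11% (4.88 to 12.5) held at least 3 and 38.7% (32.3 to 45.5) none. In CD4 cells 42.5% (36.8 to 48.3) of single and 5.88% (2.57 to 11.3) of expanded cells held at least 3. The share with at least 3 members was 0.264% and 1.14% in control and anti-CTLA-4 macrophages.

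S1pr1 and Ccr7 were found more often in cells with Klf2. Of 153 anti-CTLA-4 CD4 cells with a Klf2 UMI after thinning, 32.7% (25.3 to 40.7) held S1pr1 and 58.8% (50.6 to 66.7) held Ccr7, against 10.9% (7.98 to 14.5) and 27.0% (22.6 to 31.7) of the 385 without. In CD8 cells the shares with S1pr1 were 14.7% (9.75 to 20.9) and 6.72% (4.61 to 9.41). Lef1 was found in 40% (30.8 to 49.8) of CD4 cells with a Tcf7 UMI and in 22.7% (18.8 to 26.9) of those without. Satb1 was found in 30.3% (21.8 to 39.8) of CD8 cells with an Il7r UMI and in 45.4% (41.1 to 49.8) of those without, and in CD4 cells in 52.3% (42.5 to 61.9) and 48.7% (43.9 to 53.6).

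Over 12 points, the CD4, CD8, Treg, NK, B and macrophage classes of both libraries, the genes most alike in log2 level were listed among 8492 genes. Pearson correlations are given as descriptions; the points share libraries and depth. The closest were Itm2a and Cd96 for Tcf7 (0.94 and 0.93), Btbd6 for Lef1 (0.97), Gramd3 and Pdcd4 for Satb1 (0.97 and 0.96), Il21r for Ccr7 (0.91), Mfsd14a for S1pr1 (0.93), Sipa1l1 for Klf2 (0.96), Hif1a and Cish for Il7r (0.96 and 0.94), Atp2a3 for Bach2 (0.94) and Ccdc86 for Id3 (0.97). These places depend on the settings: with 100 CPM added or with a minimum of 500 UMIs, other genes came first for Lef1 and Bach2, with 100 CPM added also for Ccr7 and S1pr1, and with the minimum also for Id3. Among the members themselves Tcf7 and Lef1 correlated at 0.83, while Lef1 and Id3 stood at -0.77.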

How the data were processed

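Gene expression and TCR libraries of both groups, and the BCR library of the anti-CTLA-4 group, were used. The deposited expression matrices are UMI counts that the authors had not normalized, and the deposited receptor tables give UMI counts for each contig with its clonotype. The submitters' processing notes name Cell Ranger 5.0.0 with mm10 and GRCm38; the annotation release is not given in the sources used here. Kept barcodes had at least 200 genes and at most 15% mitochondrial UMIs. Scrublet marked 0 control and 1 anti-CTLA-4 barcodes, so the 240 and 133 with the highest scores, the expected rate, were removed. Both libraries were clustered together (scanpy 1.11.5; 2000 variable genes without the 9 genes, the gene lists, receptor, mitochondrial and ribosomal protein genes; 30 components, 15 neighbours, Leiden resolution 1.0) and clusters were named from markers. Class names rebuilt from markers can differ from the authors' classes. In T-like cells, Treg cells had Foxp3 and no Cd8a or Cd8b1 UMI, CD8 cells Cd8a or Cd8b1 and no Cd4 or Foxp3, and CD4 cells Cd4 and none of the others; 189 control and 811 anti-CTLA-4 T cells fell in no subset. Control CD4 cells held 5 Treg markers at a summed 1661 CPM and anti-CTLA-4 ones at 880.04, beside 5367 and 4389 CPM in Treg cells.

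Levels have exact Poisson, ratios exact conditional binomial and shares exact Clopper-Pearson 95% intervals (scipy 1.17.1), which cover counting error only. Medians add 0.5 UMI to each sum, and likeness adds 20 CPM. The ratio code was tested on simulated counts. With 1 library per group no p-value is given. The genes, lists and rules were chosen with earlier results of these data known. Named list genes are the 2 with the most UMIs and the 2 whose interval bound lies farthest from 1 in each comparison, of which some are printed; Gpr183 in CD4 cells, Ccl19 and Ccl21a were named after their values were seen. Alternatives covered filters, doublets, resolution, subset and clonotype definitions, scaling and thinning.
One result that concerns an item withheld for evaluations is not reported here.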

Additional observations from a re-analysis of the deposited data

Results flagged for a closer look

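Ccr7 was on opposite sides of the control level in different classes: its ratio of anti-CTLA-4 over control was 0.521 in CD4, 0.416 in CD8 and 0.736 in B cells, and 1.26 in Treg cells, each with a counting interval that does not include 1. Il7r was likewise at 0.706 times its control level in Treg and at 2.80 times in NK cells. Within CD8 cells Ccr7 was at 0.177 times its single-clonotype level in expanded clonotypes of the anti-CTLA-4 library and at 1.63 times in the 7 expanded cells of the control library. With 1 library per group none of these differences between classes or libraries could be tested across animals.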

How the results depend on the processing

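No paired analysis was possible because each group has 1 expression library. In the anti-CTLA-4 library the number of members lower in expanded clonotypes was 8 or 9 in CD4 and 7 or 8 in CD8 cells under every alternative run, among them clonotypes by identical TRB CDR3, at least 3 barcodes, and the largest clonotype left out. No member was higher there, except 1 CD4 member with T subsets from subclusters. The Il7r ratio in CD8 cells lay between 0.892 and 1.25, and the Ccr7 ratio between 0.139 and 0.221.

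Counts between libraries moved more. With T subsets from subclusters, 7 members were higher in CD8 cells, and in Treg cells 1 was higher and 1 lower, with Klf2 at 0.558 times its control level. The CD8 subclusters behind that count held 8, 17 and 0 control cells. With cells thinned to 1000 UMIs, 2 members were higher in CD4, 0 in CD8 and 3 in NK cells, 1 was lower in Treg and 0 in NK cells, and Lef1 in CD8 cells was at 0.994 times. With T cells defined by a TRB contig, 2 were higher in CD4 cells and 5 in all T cells. Members lower in CD8 cells numbered 2 with doublets kept, at resolution 2.0 and without the genes leading cells without Ptprc, and 2 in CD4 cells without Treg-like subclusters; 1 was lower in B cells with doublets kept. In all T cells 3 members were higher and 2 lower, and 0 were lower with a mitochondrial limit of 10%, a TRB contig, thinning, or levels without mitochondrial and ribosomal protein genes, and 1 with doublets kept. Thinning gives cells equal weight and leaves out those under 1000 UMIs. The causes of these changes in counts were not tested. Of 1028 ratios under alternatives 966 stayed inside their counting interval. Among ratios of at least 20 UMIs whose interval did not include 1, 2 changed direction, the Klf2 and Lef1 ratios above; ratios whose interval included 1 were not counted as changing. Klf2 in expanded CD4 clonotypes was at 0.111 times with at least 3 barcodes, and Bach2 in thinned NK cells at 1.28 times. Of the 3 genes most like a member, fewer than 2 remained in 5 of 18 cases, 9 members under 2 settings. Depth limits the control subsets, with 56 to 62 cells each by single-cell UMIs and fewer for CD4 and CD8 cells by subclusters.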
